A study of Mus musculus with 10 samples.

Results

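Tuft cells were followed in the jejunum through 9 genes, Dclk1, Trpm5, Il25, Pou2f3, Gnat3, Alox5, Ptgs1, Hpgds and Sh2d6, which were chosen by name as genes of tuft cells, with earlier results of these data known. Of the 9 symbols, 8 were rows of the count files, among 24062 gene symbols in all, and Sh2d6 was not analysed here. The study sequenced RNA of whole jejunum, taken on postnatal day 5 from WT and KSR23 mice (5 libraries each), to ask how IL-23 made in the skin affects the intestine. WT mice were wild-type C57BL/6 animals by their labels, and the study describes its WT controls as littermates. KSR23 mice, on the same background, carried an IL-23 cassette (the p19 and p40 subunits, genes Il23a and Il12b) in the ROSA26 locus behind a floxed STOP, which a cre recombinase under the keratin 14 (K14) promoter removes in keratinocytes and other K14+ epithelia. Of the subunit genes, Il12b was among the genes called higher in KSR23 jejunum and Il23a was not called, and the counts do not separate transgenic from endogenous transcripts. Libraries were made from homogenised tissue and not from sorted cells, so fewer cells of a type and less RNA per cell cannot be told apart.

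Tuft cells are rare chemosensory cells of the gut epithelium. They sense luminal metabolites and parasites through a cascade of taste receptors, the G protein gustducin and the cation channel Trpm5, and depend on the POU transcription factor Pou2f3. Once stimulated they release interleukin-25 (IL-25), leukotrienes and prostaglandin D2, and through IL-25 they activate type 2 innate lymphoid cells, whose interleukin-13 in turn makes the epithelium produce more tuft and goblet cells. Several of these genes are also used outside tuft cells: mast cells, macrophages and platelets make eicosanoids, and Dclk1 is transcribed in enteric neurons.

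Of the 8 genes, 7 had enough counts to be tested and only Hpgds, the prostaglandin D2 synthase of haematopoietic and tuft cells, passed the test for a difference between the groups. It fell to 18.7 ± 8.17 CPM in KSR23 from 114 ± 35.6 CPM in WT (SD, n = 5 each; CPM are counts scaled to a library total of 1e+06). The transcripts that define tuft cells (Pou2f3, Dclk1, Trpm5, Gnat3, Il25) were scarce or absent in both groups, and none of them passed the test. The count of members called was 1 of 7 (14.3%). Over all 17632 genes tested, 18.5% passed the same test (an adjusted p under 0.05 in the likelihood ratio test of edgeR), with 9.73% higher and 8.76% lower in KSR23, and the members' share was near that background. The median log2 fold change (KSR23 over WT) was -0.52 over the 7 members and 0.03 over all genes. Gnat3 lay at or under 3 counts in every KSR23 library, and with that gene at its bound the median of the members was -0.05.

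The promoter of Hpgds is shown because Hpgds alone among the members was called, and because it holds the octamer ATGCAAAT. POU factors of the Oct family, to which Pou2f3 belongs, bind that sequence. RefSeq promoters (build GRCm38.p6, from 250 bases before to 50 bases after the start) were found for 7 of the 9 genes, 8 promoters in all, and none for Il25 and Pou2f3. The octamer was searched on both strands (ATGCAAAT or ATTTGCAT), and 1.74% of 32851 mouse promoters hold it. Among the members it was found in Hpgds alone, 174 bases before the start (chr6:65144681-65144980, minus strand). The promoter of the succinate receptor Sucnr1, which also differed between the groups and was looked at after its values were seen, holds it 48 bases before the start (chr3:60081619-60081918, plus strand). Both are written 5′ to 3′ along the gene, with the octamer in capitals. The letters TTCNNNGAA, to which STAT factors bind, are the same on both strands, are present in 8.3% of promoters and did not occur in the promoters of the members.
Hpgds: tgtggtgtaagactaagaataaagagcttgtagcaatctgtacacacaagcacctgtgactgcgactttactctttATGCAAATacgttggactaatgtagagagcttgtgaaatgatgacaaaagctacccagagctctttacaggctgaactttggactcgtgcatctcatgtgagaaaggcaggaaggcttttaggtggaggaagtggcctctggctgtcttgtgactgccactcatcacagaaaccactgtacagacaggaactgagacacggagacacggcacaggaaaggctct
Sucnr1: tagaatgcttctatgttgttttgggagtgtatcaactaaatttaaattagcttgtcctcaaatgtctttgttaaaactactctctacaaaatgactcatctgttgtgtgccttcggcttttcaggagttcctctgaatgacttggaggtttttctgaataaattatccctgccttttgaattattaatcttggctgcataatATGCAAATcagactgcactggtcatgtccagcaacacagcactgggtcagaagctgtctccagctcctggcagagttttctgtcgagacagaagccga
A match of these letters is a description of the sequence and not a measurement of binding. The share of called genes that hold the octamer was not counted, and a part of Pou2f3 at these promoters was not tested.

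The libraries held 25.5 to 32.0 M counts in WT, against 31.2 to 60.9 M in KSR23, so 3 counts corresponded to 0.0427 to 0.119 CPM. At most genes, replicates 4 and 5 had values intermediate between those of replicates 1 to 3. They were the highest or the lowest library of their group at 8.47% to 18.3% of 9419 autosomal genes, and replicates 1 to 3 at 46.0% to 75.5%, where 40% is the share if 5 libraries are exchangeable. Whether replicates 4 and 5 are independent animals was not tested, and if they are not, the errors and p-values at n = 5 are too small. All 10 were kept because the labels give each as a separate sample, and calls are also given for replicates 1 to 3 alone, in which 3.36% of genes passed the likelihood ratio test and 0.812% the quasi-likelihood F test of edgeR. With 5 replicates 15.4% of genes passed the quasi-likelihood test.

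Pou2f3 (chromosome 9, 43123939 to 43210369, mm10), the transcription factor without which tuft cells do not form, had 8, 24, 5, 10 and 7 counts in WT replicates 1 to 5. In KSR23 it had 10, 7, 0, 9 and 1 counts. WT replicate 2 was the highest of all libraries, KSR23 replicate 3 had none, and 4 of the 5 KSR23 libraries lay below every WT library in CPM. The means were 0.366 ± 0.272 CPM in WT, against 0.111 ± 0.0944 CPM in KSR23 (SD, n = 5 each). The log2 fold change was -1.64 (SE 0.73, 95% interval -3.07 to -0.21) and did not pass the test across all genes in edgeR (unadjusted p = 0.0229, adjusted p = 0.0974; quasi-likelihood adjusted p = 0.188). Without WT replicate 2 it was -1.02 (edgeR adjusted p = 0.335).

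Dclk1 (chromosome 3, 55242364 to 55539068), the microtubule-associated kinase most used to stain tuft cells, had 88, 69, 103, 138 and 65 counts in WT libraries, against 254, 124, 55, 234 and 156 counts in KSR23. In CPM the groups overlapped, at 3.07 ± 0.747 in WT, against 3.67 ± 0.877 in KSR23 (SD, n = 5 each), and KSR23 replicate 3 was the lowest of all 10 libraries. This gave a log2 fold change of 0.26 (SE 0.32, 95% interval -0.37 to 0.88; edgeR adjusted p = 0.638).

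Trpm5 (chromosome 7, 143069153 to 143094642), the channel that depolarises the tuft cell, had 14, 10, 0, 16 and 7 counts in WT, against 42, 21, 9, 17 and 39 counts in KSR23. WT replicate 3 held no read of it, and the ranges overlapped (0 to 0.461 CPM in WT, 0.301 to 1.10 CPM in KSR23). This amounted to a log2 fold change of 0.98 (SE 0.64, 95% interval -0.27 to 2.24; edgeR adjusted p = 0.303). Trpm5 overlaps Tssc4 in the annotation, and reads in the shared part could belong to either gene.

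Gnat3 (chromosome 5, 17962549 to 18019834) encodes the alpha subunit of gustducin. It had 2, 0, 5, 1 and 0 counts in WT, against 0, 1, 0, 0 and 0 counts in KSR23, so a single WT library exceeded 3 counts and no fold is given. It did not pass the test (edgeR unadjusted p = 0.0433, adjusted p = 0.151). It was called together with Hpgds when KSR23 replicate 2, the only KSR23 library with a Gnat3 read, was left out. That omission left Gnat3 at 0 counts in KSR23 and made 2 of 7 members called, beside 2761 of 17587 genes. Il25 (chromosome 14, 54932695 to 54935837), the cytokine by which tuft cells alert innate lymphoid cells, had 0 counts in all 10 libraries. At these depths a count of 0 allows up to 0.0427 to 0.119 CPM per library, and a difference in Il25 was not detectable.

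**Figure D1:**
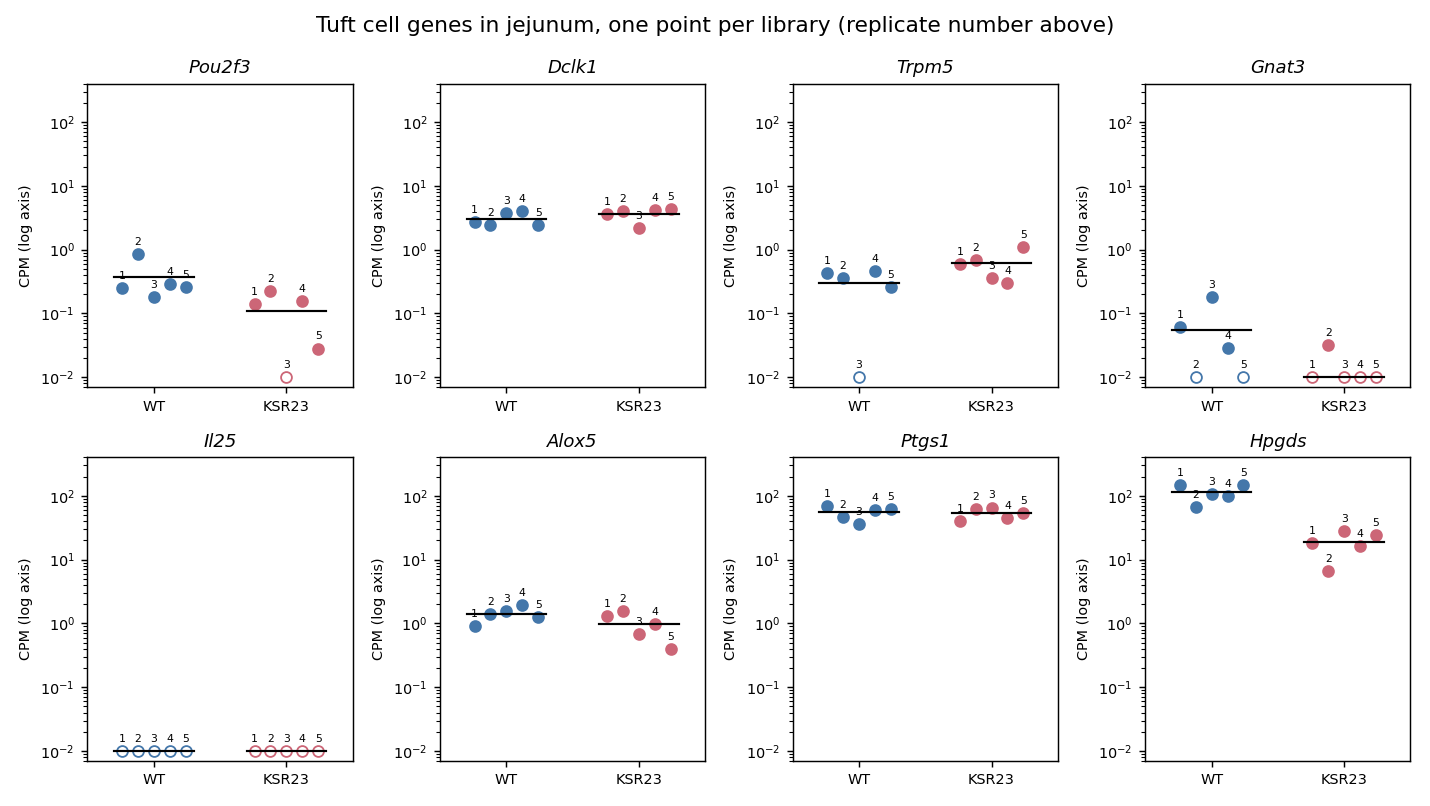
CPM of the 8 measured genes on a log axis, with 1 point per library, the replicate number above it, a line at the group mean, and open points at the bottom for libraries with 0 counts. The groups separate in the panel of Hpgds (67.2 to 150 CPM in WT, 6.58 to 27.6 CPM in KSR23) and overlap or are at 0 in the others.

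Alox5 (chromosome 6, 116410077 to 116461178), the lipoxygenase that opens leukotriene synthesis, had 29, 40, 43, 68 and 33 counts in WT, against 92, 48, 17, 55 and 14 counts in KSR23. KSR23 replicates 3 and 5 were the lowest libraries in CPM, and the other KSR23 libraries lay within the WT range. The means were 1.42 ± 0.394 CPM in WT, against 0.98 ± 0.465 CPM in KSR23 (SD, n = 5 each). The log2 fold change was -0.52 (SE 0.43, 95% interval -1.36 to 0.31; edgeR adjusted p = 0.436).

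Ptgs1 (chromosome 2, 36230426 to 36252272), the constitutive cyclooxygenase that makes prostaglandin H2, had 2240, 1323, 998, 2063 and 1669 counts in WT. In KSR23 it had 2792, 1944, 1649, 2517 and 1901 counts. The groups overlapped throughout, at 55.0 ± 13.1 CPM in WT, against 53.2 ± 11.2 CPM in KSR23 (SD, n = 5 each). The log2 fold change was -0.05 with a 95% interval of -0.61 to 0.51 (SE 0.29, edgeR adjusted p = 0.939), and its sign turned when single libraries were left out.

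Hpgds (chromosome 6, 65117293 to 65144908) turns prostaglandin H2 into prostaglandin D2. It had 4856, 1901, 2857, 3448 and 3981 counts in WT, against 1295, 204, 694, 929 and 875 counts in KSR23. In CPM this was 150, 67.2, 105, 99.3 and 149 in WT and 18.4, 6.58, 27.6, 16.5 and 24.7 in KSR23. Replicate 2 was the lowest library of each group, and the lowest WT library was above the highest KSR23 library, a separation seen in 14.4% of all genes tested. Hpgds was 6.09-fold lower in KSR23 by the means, with a log2 fold change of -2.61 (SE 0.38, 95% interval -3.36 to -1.86; edgeR adjusted p = 1.02e-08; quasi-likelihood adjusted p = 8.21e-04). The fold change stayed between -2.34 and -2.79 on the log2 scale when any single library was left out, and Hpgds was called each time. In replicates 1 to 3 alone it was -2.58, and it passed the likelihood ratio test of edgeR (adjusted p = 0.00786) but not the quasi-likelihood test (adjusted p = 0.127). A processed pseudogene, Gm17147, lies within the Hpgds locus, and none of the 75-base stretches of Hpgds transcripts occurs in another annotated gene.

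Compared per kilobase of exon, the 8 genes formed 2 tiers. In WT, Hpgds (17.8 ± 5.54 CPM per kb, SD, n = 5) and Ptgs1 (14.2 ± 3.38 CPM per kb) did not differ beyond their spread, and these levels stood at the 86.0 and 83.7 percentile of the genes tested. Alox5 followed at 0.345 CPM per kb, Dclk1 at 0.201, Pou2f3 at 0.119, Trpm5 at 0.0472 and Gnat3 at 0.0403, between the 29.1 and the 9.48 percentile. The abundant members were thus the prostaglandin enzymes Hpgds and Ptgs1, and Alox5 and the genes that mark tuft cells were among the less abundant. The 5 genes whose log2 CPM followed Ptgs1, the member with the highest mean level per kb over all 10 libraries (13.9 CPM per kb, against 10.3 for Hpgds, which was higher in WT alone), most closely within groups were Dhx38 (Pearson's r = 0.99), Laptm5 (r = 0.98), Mcm5 (r = 0.98), Sgsm3 (r = 0.98) and Ednrb (r = 0.97). These r are descriptions over 10 libraries that share depth and tissue composition, drawn from 12888 genes with a mean of at least 1 CPM.

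Tuft cells were also read through 9 markers (Dclk1, Trpm5, Il25, Pou2f3, Gnat3, Sh2d6, Avil, Sh2d7 and Rgs13), of which 8 were rows of the files and 7 were tested. Apart from Avil, Sh2d7 and Rgs13 these markers are members themselves, so the list is no independent check. None of the 7 passed the likelihood ratio test, the quasi-likelihood test or DESeq2, and 2 had an unadjusted p under 0.05 in edgeR, as did 5286 of all 17632 genes, of which 18.5% were called. Their summed level was 4.81 to 7.69 CPM in WT and 5.55 to 10.9 CPM in KSR23, and Dclk1 had the highest mean among them. Sh2d7, an adaptor protein, had the highest fold change of the list, with 1, 0, 1, 5 and 3 counts in WT, against 1, 18, 1, 5 and 6 in KSR23 (log2 fold change 1.37, SE 1.07, edgeR adjusted p = 0.399). The groups overlapped in this sum.

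Because tuft cells are epithelial, the levels were also set against the epithelium. Of 8 general epithelial markers, Cdh1, Cdh17 and Krt20 were higher in KSR23 and 5 did not pass (37.5% called, where 18.5% of all genes were called and 9.73% called higher). The summed level of the 8 was 3513 to 5513 CPM in WT and 6528 to 10301 CPM in KSR23. Cdh1 did not pass the quasi-likelihood test of edgeR (adjusted p = 0.0572) or the main test with library totals alone (adjusted p = 0.0684), and missed the threshold without WT replicate 1, 3 or 5 or KSR23 replicate 2 or 4 (adjusted p = 0.0592 to 0.0976). With the summed counts of these 8 genes as the library total, 5 of 7 members were called, all lower in KSR23 (Pou2f3, Gnat3, Alox5, Ptgs1 and Hpgds), and Dclk1 stood at -0.66 and Trpm5 at -0.04. That scaling moved the median log2 fold change of all genes to -0.88 and called 7250 genes, 6842 of them lower, which is the median to set beside the values of Alox5 (-1.40, adjusted p = 0.00992) and Ptgs1 (-1.07, adjusted p = 0.00661) in edgeR. Pou2f3 was at -2.48 (adjusted p = 0.00402) and Hpgds at -3.58 (adjusted p = 1.51e-11).

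Hpgds is also made by mast cells, eosinophils and macrophages, and markers of these cells were measured beside it. Of 11 mast cell markers, 7 fell in KSR23 (Cpa3, Mcpt1, Mcpt2, Mcpt4, Cma1, Tpsab1 and Tpsb2), where 8.76% of all genes were called lower, with a median log2 fold change of -1.68 over the list. The chymase Mcpt1 fell to 2.68 ± 0.648 CPM from 12.2 ± 2.68 CPM (SD, n = 5 each; log2 fold change -2.19, SE 0.31, edgeR adjusted p = 1.27e-09), without overlap between the groups. Kit, the stem cell factor receptor, which interstitial cells of Cajal also carry, was not called (log2 fold change 0.83, edgeR adjusted p = 0.0579). The calls of Mcpt1, Mcpt2, Mcpt4 and Cpa3 did not depend on any single library. Tpsab1 was lost without WT replicate 3 (edgeR adjusted p = 0.168), Cma1 without WT replicate 1, 3 or 5 or KSR23 replicate 1 or 4 (adjusted p = 0.0523 to 0.0772), and Tpsb2 without WT replicate 1, 3, 4 or 5 or KSR23 replicate 1, 2 or 4 (adjusted p = 0.0578 to 0.106). Tpsb2 also missed the threshold in the quasi-likelihood test of edgeR (adjusted p = 0.0653). The summed level of the 11 genes was 32.5 to 59.4 CPM in WT and 24.6 to 32.9 CPM in KSR23.

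Of 3 eosinophil markers, the granule protein Prg2 and the eotaxin receptor Ccr3 fell and the peroxidase Epx was at 0 in all 10 libraries. Ccr3 was at 3.13 ± 0.942 CPM in WT, against 0.519 ± 0.321 CPM in KSR23 (SD, n = 5 each; log2 fold change -2.59, SE 0.51, edgeR adjusted p = 2.81e-05). Their sum was 2.90 to 5.11 CPM in WT and 0.0322 to 1.15 CPM in KSR23. Of 9 macrophage markers, Cd68, C1qb and C1qc fell and 6 did not pass, with sums of 910 to 1101 CPM in WT and 645 to 864 CPM in KSR23. Beside both lists, 18.5% of all genes were called and 8.76% were called lower. The quasi-likelihood test of edgeR called 2 of the 9 macrophage markers. In replicates 1 to 3 alone, 4 of the mast cell markers and none of the eosinophil or macrophage markers were called by the likelihood ratio test, where 3.36% of all genes were. The part of these cells in the difference in Hpgds was not tested.

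**Figure D2:**
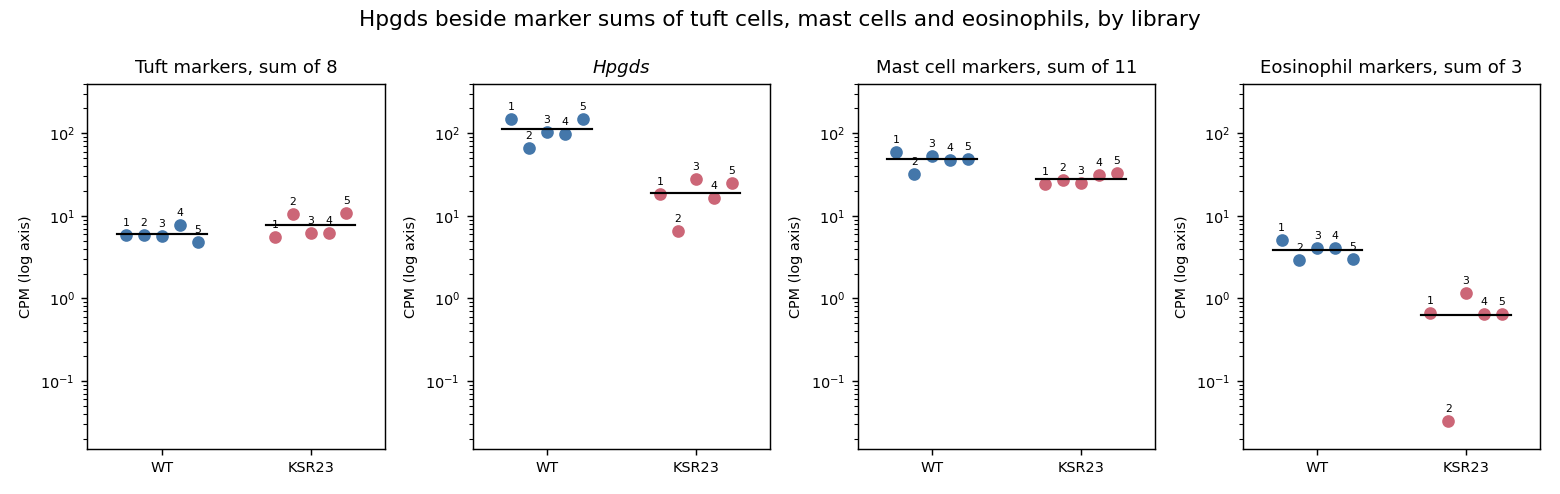
CPM by library on a log axis for the summed tuft cell markers, Hpgds, the summed mast cell markers and the summed eosinophil markers, with replicate numbers above the points and a line at the group mean. Hpgds and the eosinophil sum do not overlap between the groups, the mast cell sum overlaps narrowly (32.5 CPM at the lowest WT library, 32.9 CPM at the highest KSR23 library), and the tuft cell sum overlaps.

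The other cell types of the jejunum gave a mixed picture. Across 12 lists of cell type markers, 28 of 78 tested genes passed (7 higher and 21 lower in KSR23; 35.9%, against 18.5% of all genes), and 18 passed when KSR23 replicate 4 was left out. Neutrophil markers summed to 24.9 to 33.8 CPM in WT and 6.09 to 16.6 CPM in KSR23 (Elane higher, Ngp and Retnlg lower, of 8 tested), but 5 of the 8 had a positive log2 fold change and their median was 0.08. Of 5 platelet genes, Pf4 and Gp9 fell, with sums of 21.4 to 40.3 CPM in WT and 8.58 to 17.2 CPM in KSR23. Markers of enteric neurons, which also transcribe Dclk1, and of glia summed to 103 to 118 CPM in WT and 42.9 to 58.7 CPM in KSR23. S100b was lower and Ret higher of 10 tested, with a median log2 fold change of -0.33. S100b alone was at 48.7 ± 13.4 CPM in WT, against 0.595 ± 0.28 CPM in KSR23 (SD, n = 5 each). With mean sums of 107 and 53.4 CPM, most of the fall was that of S100b, and the sum gives no separate reading of neurons. T cell markers (2 of 5 lower), B cell markers (1 of 4 higher), enteroendocrine markers (1 of 5 higher), fibroblast markers (1 of 6 lower) and smooth muscle markers (1 of 5 lower) overlapped in their sums.

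The genes around the members were described in 6 lists, in which 13 of 69 tested genes passed (18.8%, against 18.5% of all genes), 5 higher and 8 lower. Among 9 tested genes of taste-type signalling, Sucnr1 alone was called. Sucnr1, the succinate receptor by which small intestinal tuft cells detect microbial metabolites and which macrophages also carry, had 385, 124, 336, 287 and 351 counts in WT. In KSR23 it had 4, 0, 20, 19 and 2 counts, and the CPM ranged from 4.38 to 13.2 in WT and from 0 to 0.795 in KSR23. Every WT library was above every KSR23 library, and KSR23 replicate 2 held no read. The log2 fold change was -5.36 (SE 0.73, edgeR adjusted p = 2.53e-08; quasi-likelihood adjusted p = 0.00129), and it was -6.34 without KSR23 replicate 3. In replicates 1 to 3 the call held in the likelihood ratio test of edgeR (adjusted p = 0.00501) and not in the quasi-likelihood test (adjusted p = 0.149).

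The remaining taste-type genes (Plcb2, Gnb3, Gng13, Itpr3, Rgs13, Tas1r1, Tas1r3 and Ffar3) did not pass, and the list's median log2 fold change was 0.15. Ffar3, a receptor for short-chain fatty acids, had the highest value among them (log2 fold change 0.88, SE 0.56, edgeR adjusted p = 0.282). The sweet taste receptor subunit Tas1r2 had 1 count in WT replicate 2 and none elsewhere.

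Of 15 tested genes otherwise used to recognise tuft cells, Nrep alone was called in edgeR, and the median log2 fold change was 0.08. DESeq2 called 3 of the 15, Nrep and, named after their values were seen, Kctd12 and Matk, which were lower in KSR23 and missed the threshold in edgeR (adjusted p = 0.0743 and 0.0538). Nrep, a regeneration-related protein that stromal and neural cells make in quantity, had 7811, 4759, 4470, 6780 and 6208 counts in WT, against 5637, 1561, 2302, 4184 and 2889 in KSR23. The groups did not overlap in CPM, and Nrep fell by 1.41 on the log2 scale (SE 0.26, edgeR adjusted p = 3.88e-06). It was not called in replicates 1 to 3 (edgeR adjusted p = 0.143). The homeobox gene Hmx2 had the highest fold change of the list, with 2 counts in WT replicate 4 and none in the other WT libraries, against 10, 0, 0, 6 and 0 in KSR23 (edgeR adjusted p = 0.457), and Hmx3 had 1 count in all.

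**Figure D3:**
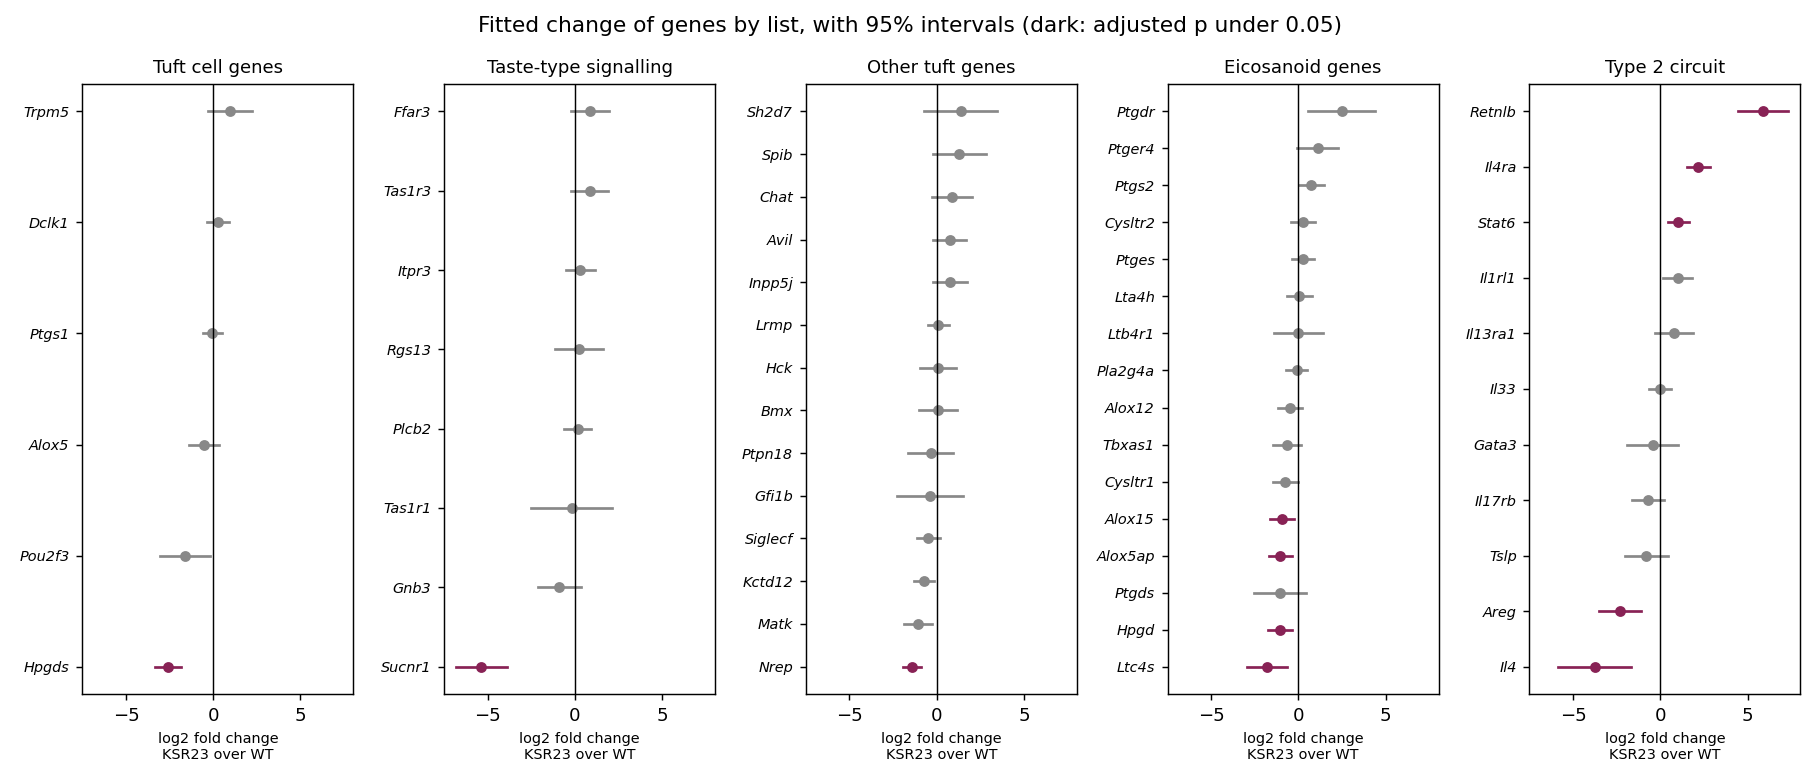
Fitted log2 fold change (KSR23 over WT) with 95% intervals for the members and 4 neighbouring lists, leaving out untested genes and genes at 3 or fewer counts throughout a group, with genes at an adjusted p under 0.05 in dark. Hpgds, Sucnr1 and Nrep lie left of 0 as the only called genes of their panels, 4 called eicosanoid genes lie left, and the type 2 panel holds called genes on both sides.

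Genes of the eicosanoid pathway were read next, in whole jejunum, where mast cells, macrophages and platelets also make eicosanoids. Of 16 tested genes, 4 were called and 12 did not pass, with a median log2 fold change of -0.30. The 4 calls (25%) were all lower, where 18.5% of all genes were called in either direction and 8.76% lower. Alox5ap, which presents arachidonic acid to Alox5, was at 4.51 ± 0.90 CPM in WT, against 2.22 ± 0.738 CPM in KSR23 (SD, n = 5 each; log2 fold change -1.03, SE 0.33, edgeR adjusted p = 0.0158), without overlap. Hpgd, which inactivates prostaglandins, was at 29.4 ± 3.11 CPM and 14.1 ± 6.02 CPM (log2 fold change -1.06, SE 0.35, edgeR adjusted p = 0.0191), also without overlap. Their direction was the same as that of Hpgds, and their sizes were smaller.

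Ltc4s, the leukotriene C4 synthase, ranged from 6.04 to 78.7 CPM in WT and from 2.94 to 17.7 CPM in KSR23, where the groups overlapped (log2 fold change -1.78, SE 0.59, edgeR adjusted p = 0.0223). Alox15, a lipoxygenase of macrophages and eosinophils, ranged from 4.18 to 9.04 CPM in WT and from 2.06 to 5.41 CPM in KSR23 (log2 fold change -0.93, SE 0.35, edgeR adjusted p = 0.0441). Neither Ltc4s nor Alox15 passed the quasi-likelihood test of edgeR (adjusted p = 0.0642 and 0.059).

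The 4 eicosanoid calls were each lost when certain single libraries were left out. Alox5ap missed the threshold of edgeR without WT replicate 2, 3, 4 or 5 or KSR23 replicate 1 or 4 (adjusted p = 0.0501 to 0.0717), and Hpgd without WT replicate 2, 3 or 4 or KSR23 replicate 1 or 5 (adjusted p = 0.0512 to 0.0682). Ltc4s missed it without WT replicate 2 or 3 or KSR23 replicate 1, 4 or 5 (edgeR adjusted p = 0.0526 to 0.125). Alox15 kept its call only without WT replicate 3 or KSR23 replicate 3, and the other omissions gave an edgeR adjusted p of 0.0637 to 0.175. None was called in replicates 1 to 3. Ptgdr, a receptor for prostaglandin D2, had the highest fold change of the list (5, 0, 9, 0 and 1 counts in WT, 13, 12, 4, 64 and 38 in KSR23) and was not called (log2 fold change 2.47, SE 0.97, edgeR adjusted p = 0.062). The other prostaglandin D2 receptor, Ptgdr2, had 0 counts in all libraries.

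Of 11 tested genes of the type 2 circuit, 3 rose and 2 fell (45.5%, against 18.5% of all genes; median log2 fold change -0.02). Il4, the cytokine of type 2 lymphocytes, basophils and mast cells, had 14, 28, 14, 6 and 8 counts in WT, against 0, 0, 0, 8 and 0 in KSR23, without overlap in CPM. Its log2 fold change was -3.76 (SE 1.07, edgeR adjusted p = 0.00405), and KSR23 replicate 4 was the only KSR23 library in which it was read. Without that library the KSR23 group was at 0 counts and the fitted value was -7.04, which is no bound. Areg, the epidermal growth factor ligand that type 2 innate lymphoid cells and mast cells release, had 52, 184, 305, 100 and 111 counts in WT, against 102, 47, 3, 80 and 29 in KSR23 (log2 fold change -2.29, SE 0.60, edgeR adjusted p = 0.00309).

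Il4ra, the receptor chain through which the epithelium receives interleukin-4 and interleukin-13, rose to 168 ± 60.0 CPM from 37.0 ± 12.0 CPM (SD, n = 5 each). Its log2 fold change was 2.18 (SE 0.34, edgeR adjusted p = 6.02e-08). Stat6, the factor it activates, rose to 214 ± 60.1 CPM from 104 ± 26.2 CPM (log2 fold change 1.04, SE 0.30, edgeR adjusted p = 0.00543). For both genes every KSR23 library was above every WT library. With epithelial genes as library total, which put the median of all genes at -0.88, Il4ra was at 1.28 and still called, and Stat6 was at 0.02 and not called (edgeR adjusted p = 0.974).

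Retnlb, a resistin-like protein of goblet cells that interleukin-13 and bacteria can induce, had 50, 1, 2, 28 and 51 counts in WT. It had 1823, 1008, 1468, 3201 and 3044 counts in KSR23, and the log2 fold change was 5.88 (SE 0.74, edgeR adjusted p = 4.49e-09). All KSR23 libraries thus exceeded the WT libraries by far, while Il13 was at 0 in all 10 libraries. Il5 (up to 4 counts) and Il9 (up to 3 counts) were too low to test. Of the 5 calls, those of Il4, Il4ra and Retnlb held in replicates 1 to 3 in the likelihood ratio test and those of Areg and Stat6 did not, and none held there in the quasi-likelihood test.

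**Figure D4:**
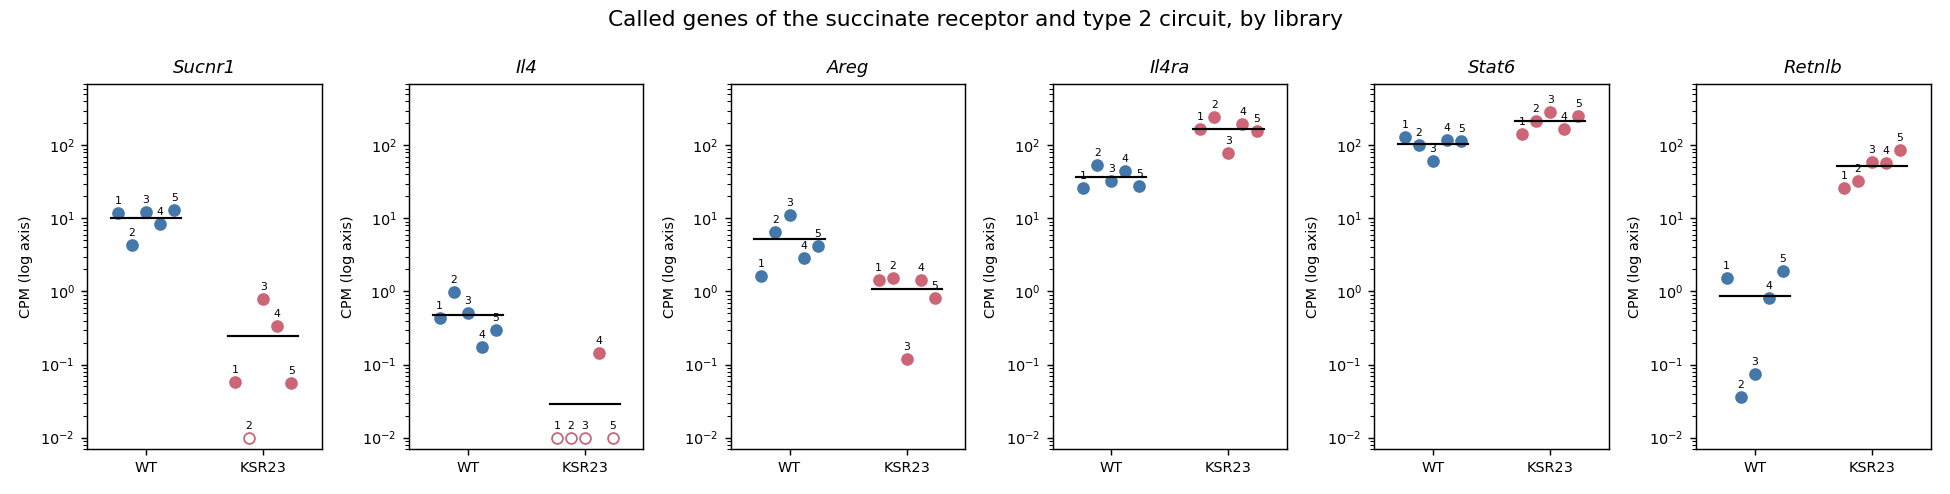
CPM by library on a log axis for Sucnr1 and the 5 called genes of the type 2 circuit, with replicate numbers, group means as lines and open points at the bottom for 0 counts. Sucnr1, Il4 and Areg are lower and Il4ra, Stat6 and Retnlb higher in KSR23, each without overlap between the groups.

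IL-25 is also called IL-17E, and its family was read alongside. Of 9 tested genes of the interleukin-17 family and its receptors, Il17f alone passed, with 2, 5, 0, 0 and 0 counts in WT, against 38, 11, 34, 15 and 8 in KSR23 (log2 fold change 3.42, SE 0.96, edgeR adjusted p = 0.00343). It stayed called without any single library (edgeR adjusted p = 1.37e-04 to 0.0153), and its log2 fold change was 2.80 without KSR23 replicate 3 and 4.83 without WT replicate 2. The last value is no bound, since the remaining WT libraries held 2 or 0 counts. Il17f was not called in replicates 1 to 3 (edgeR adjusted p = 0.0803). Il17rb, the receptor for IL-25, had the lowest fold change of the list (1.19 ± 0.451 CPM in WT, 0.71 ± 0.398 CPM in KSR23, SD, n = 5 each; log2 fold change -0.71, SE 0.47, edgeR adjusted p = 0.306). Il17a reached 3 counts in no more than a single library and stayed untested.

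Among 10 paralogues and partners of the members, Gnat1 alone was called. Gnat1, the transducin alpha subunit of rod photoreceptors and a paralogue of Gnat3, had 7, 3, 7, 8 and 11 counts in WT, against 68, 35, 25, 32 and 62 in KSR23, without overlap in CPM. It rose by 2.13 on the log2 scale (SE 0.49, edgeR adjusted p = 2.30e-04), and stood at 1.15 with epithelial genes as library total (median of all genes -0.88), where it was not called. The gene with the lowest fold change of the list was 1810046K07Rik, a small coactivator of Pou2f3, with 27, 2, 10, 21 and 7 counts in WT, against 4, 13, 3, 8 and 0 in KSR23 (log2 fold change -1.56, SE 0.84, edgeR adjusted p = 0.203).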

How the data were processed

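RNA of homogenised jejunum (100 pg per library) was primed with oligo-dT, amplified by 15 cycles of PCR and read as 75-base single ends. Per the labels and methods, the authors mapped reads to mm10 with TopHat2 2.1.0 and counted them per gene with HTSeq 0.6.1p1. The deposited values were raw counts for 24062 symbols, neither normalized nor filtered. The strand setting was not given in the sources used here, and 8.62 to 17.1 M reads per library with several alignments entered no gene. Without molecular identifiers, the limits given for a count of 0 cover counting error only.

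Groups came from the sample titles. The study describes the libraries of a group as biological replicates, and the labels name no individual mice. Genes with at least 5 counts in at least 1 library were fitted in edgeR 4.0.16 (R 4.3.3) with trimmed mean (TMM) factors and group as the only term, compared by likelihood ratio, and adjusted over all genes by the Benjamini-Hochberg method (threshold 0.05). Means ± SD are of TMM-scaled CPM, and log2 CPM used a prior count of 2. Repeats used DESeq2 1.42.0, the quasi-likelihood test, other scalings and filters, a replicate block, or fewer libraries. The procedure was tested on simulated data with 200 changed genes.

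Every member is named. From each list, genes that passed, genes at 3 or fewer counts throughout and the lowest and highest fold changes are named, and the untested or uncalled members of short lists are named without this rule. Members and lists were chosen with earlier results of these data known. Positions are from GENCODE M21.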

Additional observations from a re-analysis of the deposited data

Results flagged for a closer look

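In 49 sets of 5 libraries (each gene or marker sum in each group, on log2 CPM), 6 held a library whose gap to its nearest neighbour was large for the range by Dixon's test, where chance gives 2.45. Dclk1 was low in KSR23 replicate 3 (55 counts). Trpm5 was at 0 counts in WT replicate 3. Pou2f3 was high in WT replicate 2 (24 counts), the library that widens its WT range. The eosinophil sum was lowest in KSR23 replicate 2 (0.0322 CPM), below the 0.0967 CPM that 3 counts made up in that library. The sum of enteric neuron and glia markers was highest in WT replicate 2 (118 CPM) and lowest in KSR23 replicate 2 (42.9 CPM). None of the libraries involved was needed for the call of Hpgds in edgeR, which was made without each of them.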

How the results depend on the processing

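The number of members called was 1 under 17 of 20 alternatives. It was 5 with epithelial genes as library total, 0 in replicates 1 to 3 with the quasi-likelihood test, and 1 to 2 when single libraries were left out (2 without KSR23 replicate 2). With epithelial genes as library total, 27 genes of the surrounding lists, 46 cell type markers and 7250 genes overall were called, and with the median of all genes at -0.88 (0.03 as reported) Dclk1 stood at -0.66 and Trpm5 at -0.04. Replicates 1 to 3 alone gave 5, 7 and 579 calls by the likelihood ratio test, and 0, 2 and 140 by the quasi-likelihood test. Leaving out single libraries gave 9 to 18 calls in the surrounding lists, 18 to 31 among cell type markers (18 without KSR23 replicate 4) and 2370 to 3802 overall. The log2 fold change of Ptgs1 ran from -0.16 to 0.09 over these omissions (0.05, 0.03 and 0.00 without WT replicates 1, 4 and 5, and 0.09 and 0.05 without KSR23 replicates 1 and 4), and was 0.17 in replicates 1 to 3 with either test. The cause of these shifts was not tested. Among all genes called, 52.6% were higher in KSR23, 43.2% with library totals alone and 5.63% with epithelial genes as library total.

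Libraries share replicate numbers across groups, but same-numbered libraries did not deviate together (r = -0.55, 0.25, -0.46, 0.11 and 0.22), so the numbers were not read as pairs. With a replicate block 1 member, 9 genes of the surrounding lists, 19 cell type markers and 2202 of all genes were called, and Hpgds was at -2.70. Areg (edgeR adjusted p = 0.0633), Stat6 (0.0609), Ltc4s (0.193), Alox15 (0.162), Cma1 (0.0876) and Tpsab1 (0.152) were among the genes not called with the block. Pou2f3, Gnat3 and Il25 had 0 to 24 counts per library.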
